A study of Mus musculus with 6 samples.

Results

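Arhgef19 and 9 genes of planar cell polarity, 10 of the 27179 genes in the deposited table, were followed in the lung epithelium of mouse embryos at E16.5 with and without a conditional deletion of Grhl2. The members were fixed by name and found through their Entrez identifiers, and all 10 were matched. They are the guanine nucleotide exchange factor gene Arhgef19 and the polarity genes Vangl1, Vangl2, Celsr1, Celsr2, Scrib, Ptk7, Prickle1, Prickle2 and Dvl2. Polyadenylated RNA of flow-sorted EpCAM+ lung cells was sequenced from 2 genotypes. Grhl2_cKO samples were Shh-Cre;Grhl2f/- (1 floxed and 1 null allele; replicates 1, 5 and 10), and control samples were Shh-Cre;Grhl2f/+ (1 floxed and 1 intact allele; replicates 1, 3 and 7). Both genotypes carried the Cre driven by Shh, which is active in the embryonic lung epithelium, so control cells in which it acted keep 1 intact Grhl2 allele. By the labels, 2 samples of each genotype were male and 1 was female. The labels do not say whether a sample is 1 embryo, so the p-values speak only to the spread among these samples, which may be technical.

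Planar cell polarity is the alignment of cells within the plane of a sheet. Frizzled, Dishevelled (Dvl) and their partners gather on 1 side of each cell, Vangl and Prickle gather on the opposite side, and the atypical cadherins of the Celsr family join the sides of neighbouring cells. The pathway acts on the cytoskeleton in part through the GTPase RhoA, which exchange factors such as the product of Arhgef19 switch on. Arhgef19 is also called WGEF, a protein described in Xenopus as acting with Dishevelled and Daam1 in the cell movements of gastrulation. In mouse epidermis it has been described as a target of Grhl3, a relative of Grhl2. Mouse mutants of Celsr1 and Vangl2 have defects of lung branching.

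Total gene counts were 13472216 to 17228762 per library. Grhl2 stood at 105.3, 109.2 and 115.3 CPM (a gene's share of all counted reads on the per-million scale, with TMM-scaled library sizes) in Grhl2_cKO, against 149.2, 147.9 and 146.0 CPM in control, so it fell to 74.4% of the control level (edgeR adjusted p = 0.00204). The deleted exons are not named in the labels, and reads from exons outside the deletion would still be counted. Of 14842 genes tested, 533 (3.59%) passed an adjusted p of 0.05, of which 353 fell (2.38%) and 180 rose (1.21%). Markers of lung epithelium were abundant in every library, with 7 genes summing to 14715 to 17513 CPM in Grhl2_cKO and 15456 to 16719 CPM in control. Sftpc made up most of that sum, at 12594 to 15449 CPM in Grhl2_cKO and 12791 to 14309 CPM in control. Of the other markers, Cdh1 (83.0% of control, edgeR adjusted p = 0.239) and Krt8 (71.8%, edgeR adjusted p = 0.0843) were lower in Grhl2_cKO without overlap and were not called. Nkx2-1 (103% of control), Foxa2 (105%) and Krt18 (77.3%) overlapped between the genotypes and were not called (edgeR adjusted p = 0.971, 0.875 and 0.317). Myh7 and the epithelial markers except Epcam are named here after their values were seen. Epcam, the gene of the sorted protein, averaged 361 ± 36.2 CPM in Grhl2_cKO and 534.6 ± 29.7 CPM in control (SD, n = 3 each) and fell (edgeR adjusted p = 0.00527). The summed level of 10 ciliated cell markers was 102 to 142 CPM in Grhl2_cKO and 190.3 to 249 CPM in control, and 9 of the 10 fell. Foxj1, the regulator of ciliated cell fate, averaged 25.7 ± 7.86 CPM in Grhl2_cKO and 58.8 ± 8.03 CPM in control (SD, n = 3 each). The sums of mesenchymal (11 genes, 899 to 1809 CPM in Grhl2_cKO and 930.0 to 1501 CPM in control), endothelial and blood markers overlapped between the genotypes. The sum of 8 heart muscle genes was 422, 218 and 215 CPM in Grhl2_cKO replicates 1, 5 and 10, against 189, 160.1 and 167 CPM in control, so the knockout libraries were all above the controls and replicate 1 was the highest. Of these genes Myh7, at 201, 192 and 196 CPM in Grhl2_cKO against 147, 139 and 139 CPM in control, rose (edgeR adjusted p = 0.000847). Myh7 made up most of the sum in every library except Grhl2_cKO replicate 1. Of the other heart genes 6 were not called and 1 was not tested, and each overlapped between the genotypes. The part of these differences in the results below was not tested.

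Of the 10 members, Arhgef19 fell and the other 9 were not called in either direction (edgeR quasi-likelihood test, Benjamini-Hochberg adjustment over all 14842 genes). One call among 10 members lower and 0 higher stands beside 3.59% called among all genes, and DESeq2 and limma-voom gave the same counts of members. At an unadjusted p under 0.05, 1 of the other 9, Vangl1, was lower and 0 were higher, beside 7.28% of all genes tested lower and 5.99% higher at that threshold (13.3% in all). All 10 passed the filter on low counts, with mean counts per library from 186 (Prickle2) to 6776 (Celsr1).

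**Figure D1:**
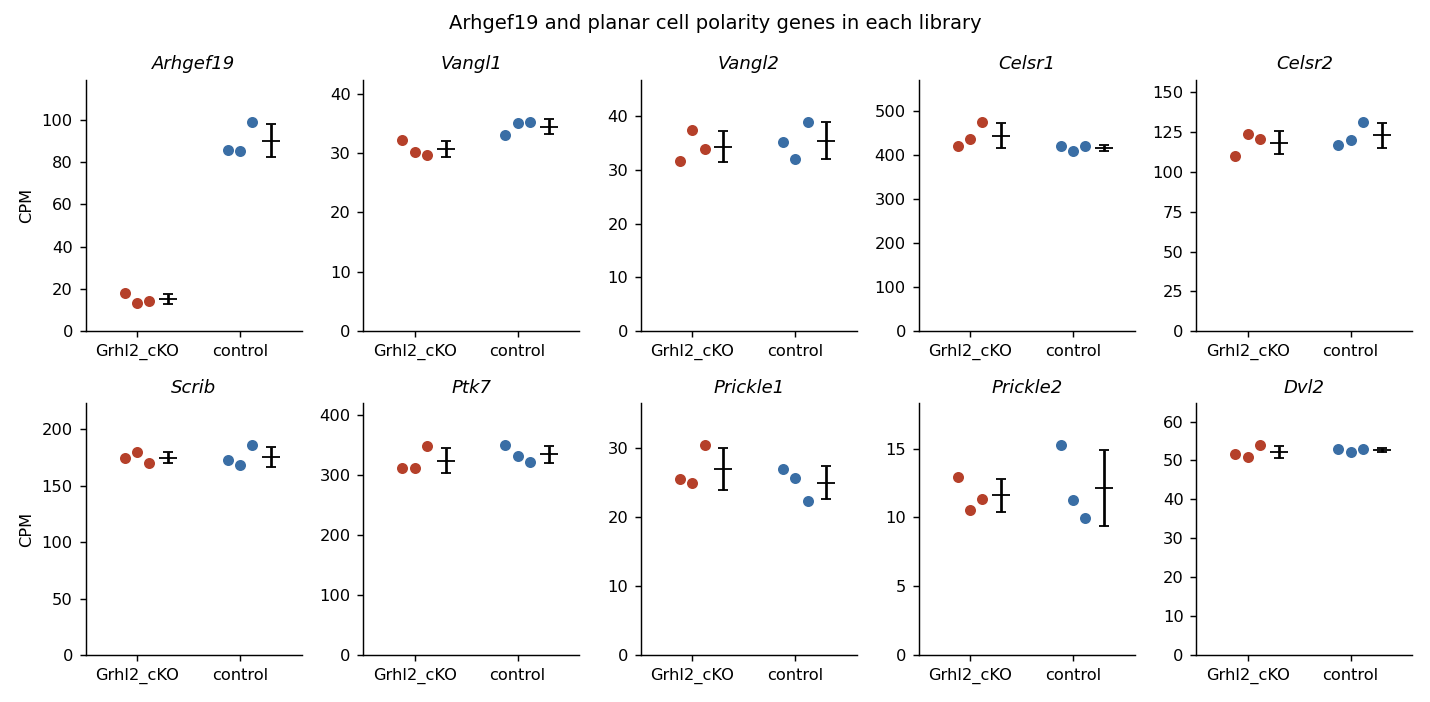
Level of each member in each library, in CPM on a linear axis from 0, with Grhl2_cKO left and control right; black marks are the mean and the SD of 3 libraries. Arhgef19 lies at 13.2 to 17.9 CPM in Grhl2_cKO and 85.4 to 99.2 CPM in control, with no overlap; of the other members, the libraries of Vangl1 and Celsr1 do not overlap by a small gap and those of the rest overlap.

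Arhgef19 (Entrez 213649) lies on the plus strand of chromosome 4, chr4:141239605-141257915 in mm10. The RefSeq promoter table (GRCm38.p6, the assembly behind mm10) gives 1 start for it, at 141245088, which is 5483 bases inside the gene's span. GENCODE M21 annotates further starts upstream. The counts are per gene and do not separate starts. The sequence shown is the stretch of 121 bases between the last upstream GENCODE exon and the RefSeq start, chr4:141244967-141245087, plus strand. It was chosen because it lies just before the annotated start of the member that changed.

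Arhgef19 upstream of the RefSeq start: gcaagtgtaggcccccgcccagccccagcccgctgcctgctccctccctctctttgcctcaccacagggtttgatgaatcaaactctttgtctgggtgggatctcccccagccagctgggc

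It is printed without capitals because it holds neither grainyhead motif searched, AACCGGTT or its looser form AACNNGTT (both read the same on both strands, and each match to the first is also a match to the second). The whole windows, 250 bases before to 50 after each start, were searched. Of 32851 windows of the same length in the table, 0.146% hold the first motif and 4.2% the second. Of the members, 7 had entries, with 11 windows, and 0 of those windows held either motif. No match says only that these letters are not in these windows.

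Arhgef19 had 17.9, 13.2 and 14.3 CPM in Grhl2_cKO replicates 1, 5 and 10, against 85.8, 85.4 and 99.2 CPM in control replicates 1, 3 and 7. The highest knockout library was far below the lowest control library. The means were 15.2 ± 2.45 CPM in Grhl2_cKO and 90.1 ± 7.84 CPM in control (SD, n = 3 each), a log2 fold change of -2.57 ± 0.11 (SE; edgeR adjusted p = 3.28e-06). The knockout level was 16.8% of control, with a 95% interval of 14.1% to 20.1%. Epcam and the ciliated cell markers given above were lower in the same libraries, and their part in this difference was not tested. In a bulk sample, fewer cells that hold the transcript and less of it per cell cannot be told apart.

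Arhgef19 belongs to the ephexins, a small family of exchange factors with 6 genes. The other 5, Arhgef5, Arhgef15, Arhgef16, Arhgef26 and Ngef, were not called, with log2 fold changes from -0.07 (Arhgef16) to 0.20 (Arhgef15; edgeR adjusted p = 0.729). Scaled to gene length (CPM per kilobase, from the deposited lengths), the summed level of these 5 was 67.7, 69.4 and 71.9 in Grhl2_cKO replicates 1, 5 and 10 and 71.1, 67.6 and 71.7 in control replicates 1, 3 and 7. Those sums overlapped between the genotypes. Arhgef19 gave 6.03% ± 1.05 of the summed ephexin level per length in Grhl2_cKO and 27.4% ± 1.39 in control (SD, n = 3 each). The groups of 3 libraries did not overlap (two-sided exact permutation p = 0.1, the smallest that 3 against 3 allows). The share is computed from Arhgef19 itself, so this separation restates its fall and is not a second result.

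Among 58 tested Dbl-type exchange factor genes, Arhgef19 ranked 39 by level per length in Grhl2_cKO and 9 in control. Of the other 57, which include the 5 ephexins, 1 fell and 0 rose. The one that fell, Arhgef28, a RhoA exchange factor gene, had 51.3, 47.6 and 52.4 CPM in Grhl2_cKO, against 67.0, 58.4 and 64.7 CPM in control. Its groups did not overlap, and it stood at 79.7% of control (log2 fold change -0.33 ± 0.07 SE, edgeR adjusted p = 0.0395). Over the alternatives its adjusted p ran from 0.0199 to 0.159, and the call did not hold when sex was modelled or when any library except control replicate 3 was left out. Arhgef38, chosen after its values were seen as the lowest of the other 57, had 0.54, 0.19 and 0.59 CPM in Grhl2_cKO and 1.64, 0.73 and 1.36 CPM in control, and was not called (log2 fold change -1.44 ± 0.45, edgeR adjusted p = 0.15).

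**Figure D2:**
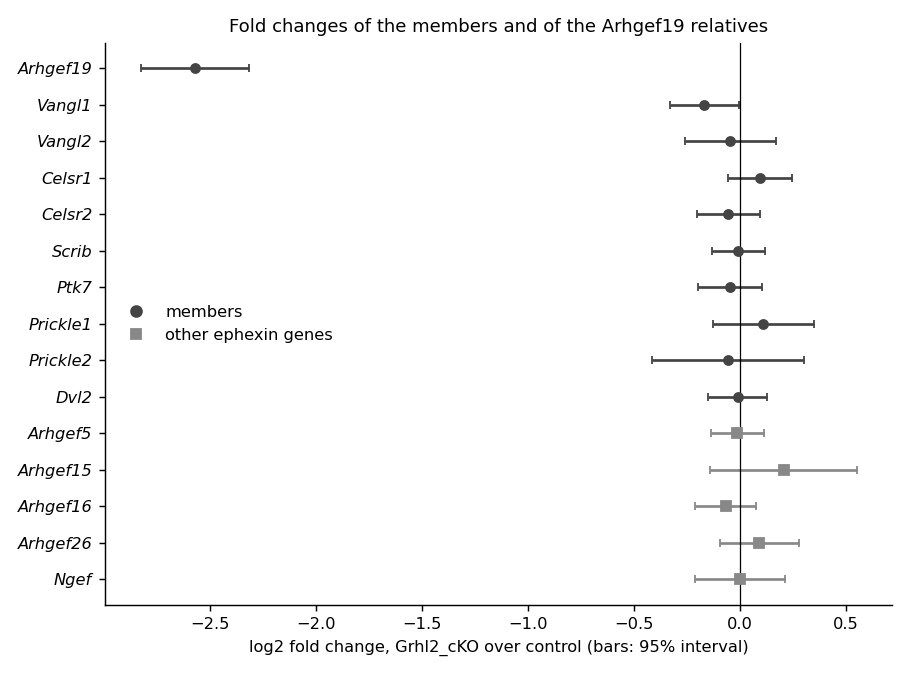
Log2 fold change of Grhl2_cKO over control for the 10 members (circles) and the other 5 ephexin genes (squares), with 95% intervals from the edgeR fit. Arhgef19 is at -2.57, and the other 9 members lie between -0.17 (Vangl1) and 0.11 (Prickle1).

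None of the 5 members that encode membrane proteins was called. Celsr1, an atypical cadherin that bridges neighbouring cells, had 421, 436 and 476 CPM in Grhl2_cKO, against 419.5, 409 and 419.9 CPM in control. Its lowest knockout library lay just above the highest control library. The log2 fold change was 0.09 ± 0.07 and was not called (edgeR adjusted p = 0.699), with a 95% interval of 96.2% to 118% of control. Celsr1 varied more among knockout libraries, with an SD of 28.4 CPM, than among control libraries, at 6.46 CPM. Celsr2, its paralog, had 110.3, 124 and 121 CPM in Grhl2_cKO, against 117 to 132 CPM in control, with overlapping groups (log2 fold change -0.06 ± 0.07, edgeR adjusted p = 0.874).

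Vangl1 and Vangl2 encode the multi-pass membrane proteins of the Prickle side. Vangl1 had 32.2, 30.2 and 29.7 CPM in Grhl2_cKO, against 33.03, 35.1 and 35.3 CPM in control. The groups did not overlap, and the highest knockout library was close to the lowest control library. The log2 fold change was -0.17 ± 0.07, which was not called (edgeR adjusted p = 0.361), and the 95% interval was 79.4% to 99.8% of control before any adjustment over genes. Vangl2 had 31.6, 37.4 and 33.8 CPM in Grhl2_cKO, against 35.2, 32.0 and 38.9 CPM in control, and these values overlapped. Its log2 fold change was -0.05 ± 0.10 (edgeR adjusted p = 0.952), and its sign turned without Grhl2_cKO replicate 1 or control replicate 7.

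Ptk7, which encodes a receptor-like membrane protein with an inactive kinase domain, had 312, 312 and 348 CPM in Grhl2_cKO, against 349.7, 332 and 322 CPM in control. The groups overlapped (log2 fold change -0.05 ± 0.07, edgeR adjusted p = 0.908). Its 95% interval was 87.2% to 107% of control.

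The polarity genes among the members that encode cytoplasmic proteins were not called either. Dvl2, a Dishevelled gene, had 51.6, 51.0 and 53.9 CPM in Grhl2_cKO, against 52.9, 52.1 and 52.9 CPM in control (log2 fold change -0.01 ± 0.06, edgeR adjusted p = 0.985; 95% interval 90.1% to 109% of control). Scrib, whose product is a PDZ scaffold that binds Vangl proteins, had 175, 179.7 and 171 CPM in Grhl2_cKO, against 173, 169 and 186 CPM in control (log2 fold change -0.01 ± 0.06, edgeR adjusted p = 0.99; 95% interval 91.3% to 108% of control). In both genes the genotypes overlapped, and these were the narrowest intervals among the 9 members other than Arhgef19. The Prickle genes encode LIM domain partners of Vangl and were the members with the lowest counts. Prickle1 had 25.5, 24.9 and 30.4 CPM in Grhl2_cKO, against 27.0, 25.7 and 22.3 CPM in control (log2 fold change 0.11 ± 0.11, edgeR adjusted p = 0.817). Prickle2 had 12.9, 10.5 and 11.4 CPM in Grhl2_cKO, against 15.2, 11.3 and 9.94 CPM in control (log2 fold change -0.06 ± 0.16, edgeR adjusted p = 0.971). Both overlapped between the genotypes, and the interval of Prickle2, 74.9% to 123% of control, was the widest among the members.

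Across the members other than Arhgef19, the median log2 fold change was -0.05, against 0.00 over all genes tested, with 7 of 9 below 0, beside 51.5% of all genes. The directions of Scrib and Dvl2 turned with upper-quartile scaling, so the count below 0 depends on the scaling. The 95% intervals of the 9 together ran from 74.9% to 127% of control. No overlap between the genotypes was found for 3 of the 10 members, Arhgef19 and Vangl1 lower and Celsr1 higher. Among all genes tested 18.1% did not overlap, 9.89% lower and 8.17% higher. Celsr1, Scrib and Prickle1 lie on chromosome 15, which also holds Grhl2, and none of these was called.

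By level per length the members kept 1 order except for Arhgef19. In Grhl2_cKO the order, from high to low, was Ptk7 (76.1 CPM per kilobase), Celsr1 (40.2), Scrib (31.5), Dvl2 (17.8), Vangl2 (15.2), Celsr2 (11.2), Vangl1 (8.62), Prickle1 (6.59), Arhgef19 (4.46) and Prickle2 (1.34). In control Arhgef19 stood at 26.5 CPM per kilobase, between Scrib (31.7) and Dvl2 (17.9), and the order of the other 9 was the same. Neighbours in each order did not overlap over the 3 libraries of that genotype. Arhgef19 thus stood above Dvl2 and both Vangl genes in each control library and below them in each knockout library.

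The wider pathway was read from 8 lists, which hold 157 tested genes besides the members. Of these, 1 fell and 1 rose, 1.27%, beside 3.59% of all genes, and their median log2 fold change was 0.00. The groups did not overlap for 21.7% of them, against 18.1% of all genes. The counts of single lists below include members again. Scrib and Ptk7 are among the ligands, co-receptors and partners, and Scrib is also in the Scribble module. The other polarity members are in the core list.

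In the polarity core list (Vangl, Celsr, Fzd, Dvl, Prickle and Ankrd6) 0 of 14 tested genes were called by edgeR, DESeq2 or limma-voom, with a median log2 fold change of -0.01, and at an unadjusted p under 0.05 there were 2 lower and 1 higher, beside 13.3% of all genes in either direction. Vangl1, a member already given above, was 1 of the 2 lower. Celsr3, the third cadherin of the family and best known in neurons, had the smallest p. It had 2.10, 3.28 and 2.84 CPM in Grhl2_cKO, against 0.97, 1.70 and 1.16 CPM in control, so its groups did not overlap, and it was not called (log2 fold change 1.08 ± 0.28, edgeR adjusted p = 0.0767). The summed level of 8 neuronal markers was 12.3 to 21.2 CPM in Grhl2_cKO and 8.91 to 11.4 CPM in control, with Elavl3 and Tubb3, named after their values were seen, called higher. The part of neuronal transcripts in the Celsr3 values was not tested.

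Among ligands, co-receptors and partners, which include Wnt5a, Ror2, Ryk and Daam1, 0 of 24 were called by edgeR or limma-voom and 1 by DESeq2, with 2 lower and 4 higher at an unadjusted p under 0.05 (13.3% of all genes in either direction). The gene called by DESeq2 was Daam2, a formin that binds Dishevelled. It had 146, 163 and 163 CPM in Grhl2_cKO, against 132, 130.5 and 136 CPM in control, with no overlap. Daam2 stood at 119% of control (log2 fold change 0.25 ± 0.06, edgeR adjusted p = 0.0515). That p missed the threshold of 0.05, and Daam2 was called in 8 of the 15 alternatives, with adjusted p from 0.0243 to 0.194. For its paralog Daam1 the log2 fold change was 0.00 (edgeR adjusted p = 0.996).

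Of 10 effectors tied to cilia, which include Fuz, Intu and Wdpcp, 0 were called by any of the 3 tools, with 2 lower and 1 higher at an unadjusted p under 0.05 (13.3% of all genes in either direction). Their median log2 fold change was -0.08, and 9 of the 10 lay below 0 under each scaling tried, beside 51.5% of all genes. Ift88, an intraflagellar transport gene, had the smallest p, at 30.2, 34.5 and 32.2 CPM in Grhl2_cKO and 38.3, 38.7 and 35.9 CPM in control (log2 fold change -0.22 ± 0.08, edgeR adjusted p = 0.21). The ciliated cell markers given above were lower in the same libraries, and their part in this list was not tested.

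In the Scribble module 1 of 12 tested genes rose and 0 fell, beside 1.21% of all genes higher and 2.38% lower. DESeq2 and limma-voom gave the same counts. At an unadjusted edgeR p under 0.05 there were 1 lower and 2 higher, beside 13.3% of all genes in either direction. The groups did not overlap for 3 lower and 2 higher, beside 18.1% of all genes in either direction. The gene that rose was Dlg4, a PDZ scaffold of the Dlg family best known at synapses, with 31.0, 29.5 and 34.6 CPM in Grhl2_cKO, against 25.4, 24.1 and 22.6 CPM in control. Its groups did not overlap (132% of control, log2 fold change 0.40 ± 0.09, edgeR adjusted p = 0.0365). The call held in 10 of 15 alternatives and was lost without Grhl2_cKO replicate 1, 5 or 10 and without control replicate 3 or 7, with adjusted p from 0.015 to 0.143. For Dlg1, a widely expressed paralog, the log2 fold change was -0.03 (edgeR adjusted p = 0.916).

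Downstream of exchange, RhoA itself had 282, 280.0 and 298 CPM in Grhl2_cKO, against 332, 288 and 276 CPM in control, with overlapping groups (gene Rhoa, log2 fold change -0.06 ± 0.08, edgeR adjusted p = 0.888). Rock1 and Rock2, its main kinase effectors, had log2 fold changes of -0.01 each (edgeR adjusted p = 0.992 and 0.988). Of 33 genes of RhoA effectors and actomyosin, 0 were called by edgeR or limma-voom, and 2 were lower and 1 higher at an unadjusted p under 0.05 (13.3% of all genes in either direction). DESeq2 called Rhob lower and Limk1 higher. Limk1, a kinase that acts on cofilin, had 39.9, 42.8 and 42.9 CPM in Grhl2_cKO, against 30.3, 32.3 and 37.2 CPM in control, with no overlap (126% of control, edgeR adjusted p = 0.0804).

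**Figure D3:**
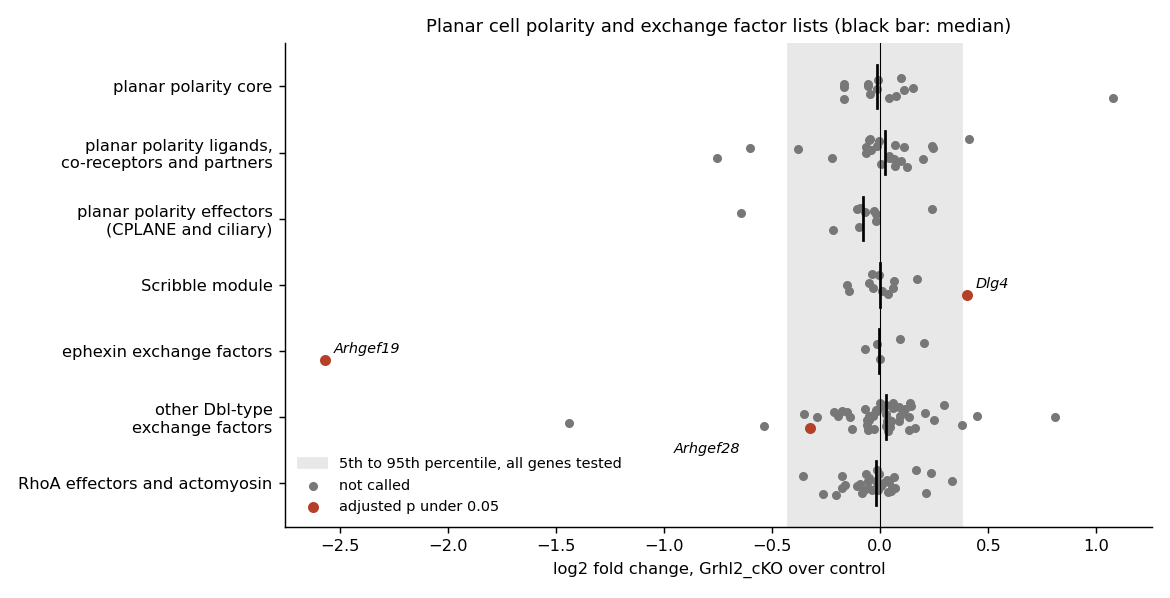
Log2 fold change of Grhl2_cKO over control for the tested genes of 7 of the 8 lists, 1 point per gene, with black bars at list medians and a grey band from the 5th to the 95th percentile of all 14842 genes tested (-0.43 to 0.38). Red points passed an edgeR adjusted p of 0.05: Arhgef19, Arhgef28 and Dlg4.

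The genes beside Arhgef19 on chromosome 4 were compared next. Within 100 kb of its span the table held 5 further genes. Cplane2, also named Rsg1, is a polarity effector gene of the CPLANE group at -25.7 kb, measured between the lower ends of both genes. It had 1.86, 1.28 and 1.13 CPM in Grhl2_cKO, against 2.167, 2.13 and 2.39 CPM in control. Its groups did not overlap, but its mean count was 28.5 and it was not called (64.1% of control, log2 fold change -0.64 ± 0.26, edgeR adjusted p = 0.299). Epha2, an ephrin receptor gene, had overlapping values of 167 to 242 CPM in Grhl2_cKO and 168 to 250.3 CPM in control (log2 fold change -0.06 ± 0.16, edgeR adjusted p = 0.971). Fbxo42 and Szrd1 had log2 fold changes of -0.01 ± 0.09 and 0.02 ± 0.05, and the noncoding gene Gm13056 had -0.39 ± 0.30, none of them called (edgeR adjusted p = 0.989, 0.961 and 0.74). Of the 6 genes in this window, Arhgef19 was the 1 that was called.

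**Figure D4:**
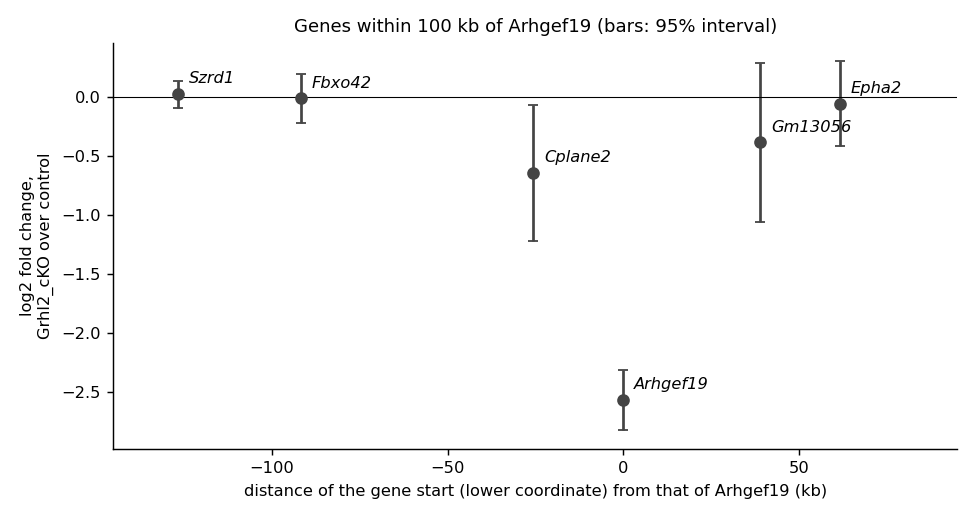
Log2 fold change of Grhl2_cKO over control, with 95% intervals, for Arhgef19 and the 5 measured genes within 100 kb, placed by the distance of their lower end from that of Arhgef19 in kb. Arhgef19 is at -2.57, Cplane2 at -0.64, and Szrd1, Fbxo42 and Epha2 lie within 0.06 of 0.

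To name the genes with the pattern most like that of Arhgef19, each gene's log2 (CPM + 0.5) was taken relative to its mean over controls, and the root mean square difference from Arhgef19 over the 6 libraries was computed over tested genes whose mean count reached 50. Genes with a placeholder symbol, or with no matched symbol, were left out. The 5 nearest of the rest were Rbbp8nl (0.15), Il17re (0.22), Tmem54 (0.28), Mlph (0.36) and Macc1 (0.37). Since they were picked for this pattern, their values are a description. Rbbp8nl had 2.47, 1.48 and 1.18 CPM in Grhl2_cKO, against 11.3, 12.1 and 13.9 CPM in control. Il17re, an interleukin 17 receptor subunit gene, had 8.42, 5.72 and 6.39 CPM in Grhl2_cKO, against 35.6, 30.2 and 36.4 CPM in control. Like Arhgef19, Rbbp8nl, Il17re and also Tmem54 were highest in replicate 1 among the knockout libraries and in replicate 7 among the controls. By the labels, those libraries are the female sample of each genotype. The part of sex in this pattern was not tested. Arhgef19 was the most abundant of these 6 genes, at 4.46 CPM per kilobase in Grhl2_cKO and 26.5 in control, against 2.29 and 11.4 for Il17re, the next in order. Promoter entries of RefSeq were found for 4 of the 5, and 0 of their 5 windows held either grainyhead motif.

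**Figure D5:**
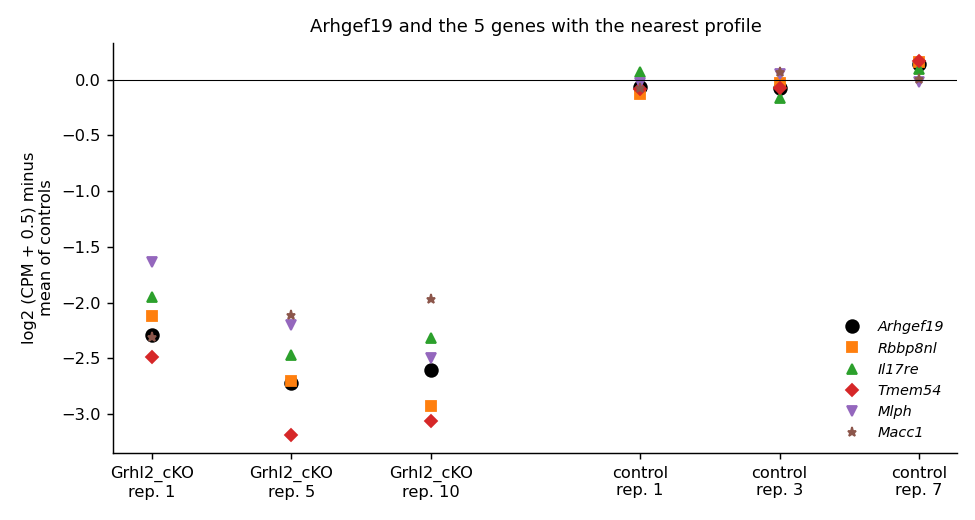
Log2 (CPM + 0.5) relative to the mean of the controls for Arhgef19 (black circles) and the 5 genes nearest to it, placeholder symbols left out, in each of the 6 libraries. All 6 genes lie between -3.19 and -1.63 in the Grhl2_cKO libraries and between -0.17 and 0.16 in the control libraries.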

How the data were processed

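Per the labels' protocols, lungs were digested, EpCAM+ cells were sorted, and stranded mRNA libraries were sequenced by Illumina. The authors deposited raw counts per Entrez gene with gene lengths. The submitters' processing notes list bcl2fastq 2.17.1.14, featureCounts, edgeR 3.16.5, limma 3.30.12 and mm10; which aligner and strand setting were used is not given.

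All 6 samples, grouped by the genotype in the descriptions, entered 1 fit in edgeR 4.0.16 (R 4.3.3): filterByExpr (minimum count 10, minimum total 15; 14842 genes kept), TMM, estimateDisp, glmQLFit and glmQLFTest without covariate, threshold 0.05. Standard errors were taken as |log2 fold change| divided by √F, and 95% intervals use the fit's degrees of freedom. Intervals are for single genes. Symbols and coordinates came from RefSeq genes on GRCm38.p6, which matched 25275 identifiers (92.99%). CPM, and CPM per kilobase of deposited length, were computed here. The test was also run on simulated counts with known changes, drawn from the means and spread of these same data, and the outcome is not reported here. A change of 3 counts equals 0.178 to 0.224 CPM. The settings tried besides were scaling by RLE, by upper quartile or by library total, no filter beyond 1 count, 1 CPM in 3 libraries, DESeq2 1.42.0, limma-voom (limma 3.58.1), robust quasi-likelihood, sex as covariate, and each library left out.

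Members and lists were chosen with earlier results of these data known. Named genes are Grhl2; the members; in each list up to 4 called genes or, with none, that with the smallest p; genes within 100 kb of Arhgef19; its 5 nearest profiles; and markers. Genes cited as background partners or paralogs beside these (the ephexins, Rhoa, Rock1, Rock2, Daam1, Dlg1) fall outside that rule. The results of 1 list are not reported here.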

Additional observations from a re-analysis of the deposited data

How the results depend on the processing

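Arhgef19 was lower and called under all 15 alternatives, with log2 fold changes from -2.71 (without Grhl2_cKO replicate 1) to -2.48 (without Grhl2_cKO replicate 5) and adjusted p of 8.09e-05 or less. The other 9 members were called under none of them, so the count of members called stayed at 1 lower and 0 higher, and the smallest adjusted p among the 9 was 0.332 (Vangl1). Of 150 member values, 140 kept sign and side of the threshold and 10, none of them called, changed sign. With upper-quartile scaling the log2 fold changes of Scrib, Dvl2 and Fbxo42 were 0.0072, 0.0028 and 0.0011. Without 1 library the range was -0.11 to 0.029 for Vangl2, -0.038 to 0.033 for Scrib, -0.18 to 0.14 for Prickle2, -0.032 to 0.0042 for Dvl2, -0.10 to 0.078 for Fbxo42 and -0.24 to 0.13 for Epha2. Over all genes, the calls without 1 library numbered 246 to 501, against 533, with 165 to 336 lower and 77 to 221 higher; they moved by over 1.5 times without Grhl2_cKO replicate 5 (249), Grhl2_cKO replicate 10 (246), control replicate 3 (293) or control replicate 7 (325), each a fit with fewer samples. Called genes of the 8 lists, members left out, numbered 2, and 2 with limma-voom. They numbered 3 with RLE, upper-quartile or library-total scaling, with 1 CPM in 3 libraries and with robust quasi-likelihood. The count was 4 with no filter, 5 with DESeq2, 1 with sex as covariate and 0 to 2 without 1 library. The calls of Dlg4 and Arhgef28 were each lost in 5 of the 6 fits without 1 library; the cause was not tested. No paired analysis was run. The genotypes share only 1 replicate number, and the sample descriptions do not say that a number marks a pair. Prickle2 had the lowest mean count of the members and the widest interval; what set the width was not tested.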
